A study of Mus musculus with 18 samples.

Results

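The cytosolic ribosomal protein genes were followed from granulocyte-monocyte progenitors (GMPs) through neutrophil precursors (preNeus) to mature neutrophils (matNeus) of mouse bone marrow. Members were the genes that the expression table lists as protein coding and whose symbol begins with Rpl, Rplp or Rps and a digit, without the Rps6k kinase genes and without symbols ending in "-ps". This gave 82 members among 34896 genes in the table, 54 with a large subunit symbol (Rpl, Rplp) and 28 with a small subunit symbol (Rps). Of these, 9 end in "-ps" and a number and are named after processed copies of other ribosomal protein genes. Another 12 ribosomal protein genes that GENCODE M21 annotates as coding carry a different transcript type in the table, so the rule left them out. They are described beside the members.

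Each ribosome joins a large subunit, which forms the peptide bonds, to a small subunit, which reads the mRNA, and each subunit carries a set of mostly single-copy proteins around its ribosomal RNA. Many of these mRNAs start with a run of pyrimidines, the 5′ terminal oligopyrimidine tract, through which their translation is controlled together. Inherited loss of 1 copy of several of these genes causes Diamond-Blackfan anaemia, a failure of red cell production. Mature neutrophils are post-mitotic, short-lived cells that make much of their granule protein at earlier stages.

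RNA-seq covered 9 libraries of wild-type C57BL/6 mice aged 6 to 12 weeks, 3 each of GMP, preNeu and matNeu sorted from bone marrow. GMPs are progenitors of neutrophils and monocytes, preNeus are dividing neutrophil precursors and matNeus are mature neutrophils. Chromatin was profiled in 1 library per group: CHD4, the ATPase of the NuRD chromatin remodelling complex, in wild-type GMPs and in GMPs of mice without the repressor GFI1 (Gfi1-/-), H3K4me2, a mark of promoters and enhancers, in the 3 wild-type cell types, and open chromatin by ATAC-seq in preNeu and matNeu. No source states that the 3 libraries of a cell type came from separate mice, so the spread between them may be technical.

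The sample titles set the groups. A second label names another population for 13 of the 18 samples, the 9 RNA-seq libraries included, and the marker genes followed the titles. The 7 GMP markers summed to 46430 to 48340 TPM, the share of transcripts corrected for length in the libraries titled GMP, the 8 preNeu markers to 146500 to 172200 TPM in those titled preNeu, and the 7 matNeu markers to 33750 to 36720 TPM in those titled matNeu. Of the 5 B cell markers, which summed to 540 to 658 TPM in GMP, 268 to 322 TPM in preNeu and 603 to 744 TPM in matNeu, Cd79a lay under 1 TPM in the GMP libraries and at 16.2, 18.6 and 33.1 TPM in the matNeu libraries, while Cd79b had 93.7, 77.8 and 87.7 TPM in GMP and 27.3, 25.1 and 53.9 TPM in matNeu. The 6 T and NK cell markers summed to 461 to 613 TPM in GMP, 217 to 253 TPM in preNeu and 9.01 to 15.99 TPM in matNeu, with Cd3e and Trac, defining genes of T cells, under 1 TPM in all 9 libraries.

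The members made up a falling share of the RNA at each stage. Of all TPM they took 3.25%, 3.93% and 3.84% in the 3 GMP libraries, 1.04%, 0.952% and 0.861% in the preNeu libraries and 0.483%, 0.338% and 0.329% in the matNeu libraries. No library overlapped another cell type. The mean share was 3.67% ± 0.368 (SD, n = 3) in GMP, 0.952% ± 0.0905 in preNeu and 0.383% ± 0.0861 in matNeu, a fall of 3.86-fold and then of 2.48-fold, 9.59-fold in all. An exact permutation test over the 3 groups gave p = 0.00357, the smallest that 280 assignments allow, and each pair of cell types gave the smallest two-sided exact p of 3 libraries against 3, 0.1. These are shares of bulk RNA: fewer expressing cells, less ribosomal protein mRNA per cell and more of other mRNAs cannot be told apart. Sums of some markers of other cells fell beside the members. The 6 monocyte markers summed to 4010 to 4829 TPM in GMP, 1675 to 2211 TPM in preNeu and 1035 to 1418 TPM in matNeu. The 5 markers of eosinophils, basophils and mast cells summed to 1147 to 1405, 108 to 171 and 38.0 to 50.0 TPM. Single genes differed: from preNeu to matNeu, 3 monocyte markers were called lower and 1 higher, and 4 and 1 of the other list. Of the 5 B cell markers, 3 were called higher at that step and none lower. The part of these cells in the fall was not tested.

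**Figure D1:**
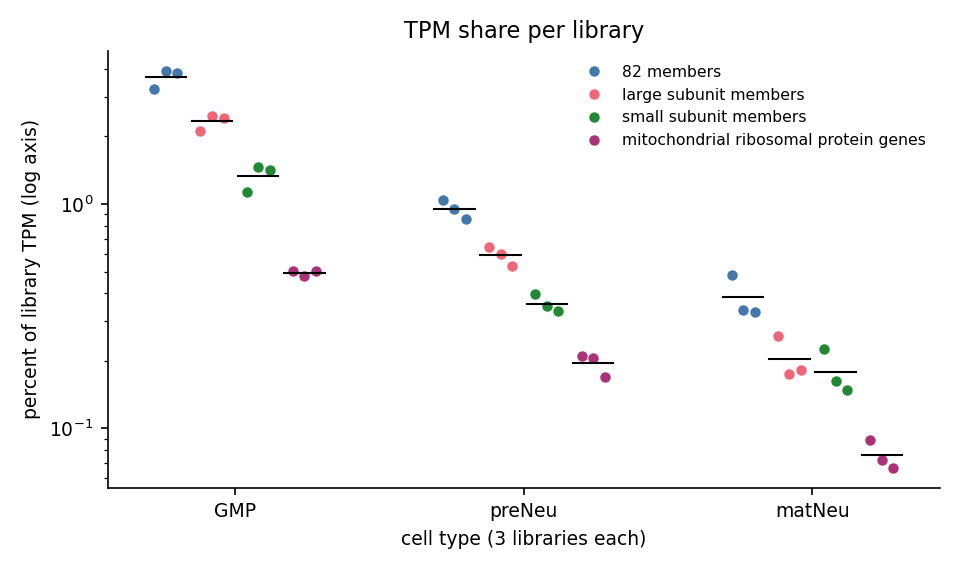
Percent of each library's TPM (log axis) taken by the 82 members, by their large and small subunit genes and by the 68 mitochondrial ribosomal protein genes in GMP, preNeu and matNeu. Points are single libraries, 3 per cell type, and bars are means; every set fell at both steps, with no overlap between cell types.

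Both subunits took part. The large subunit share went from 2.33% ± 0.191 in GMP to 0.204% ± 0.0454 in matNeu, 11.4-fold lower, and the small subunit share from 1.34% ± 0.177 to 0.179% ± 0.0414, 7.49-fold lower. The small subunit sum includes Rps9 and Rps27, with 835 and 384 mean TPM in GMP and 588 and 243 in matNeu. By gene the subunits were close. The 40 large and 24 small subunit genes with a standard name had median log2 changes of -1.88 and -1.81 from GMP to preNeu. From preNeu to matNeu these were -1.49 and -1.46. The genes for mitochondrial ribosomal proteins, which build the separate ribosome of that organelle, fell from 0.494% ± 0.0139 to 0.0756% ± 0.0114, 6.53-fold. What else filled the libraries also moved: the 10 highest genes held 9.15% to 9.78% of TPM in GMP, led by Mpo, 24.1% to 28.3% in preNeu, led by Ngp, and 12.7% to 15.9% in matNeu, while the mitochondrially encoded genes went from 3.67% to 4.55% of TPM in GMP to 0.181% to 0.204% in matNeu. With each library scaled by the median ratio of its genes instead of its total, the share became 2.50%, 0.946% and 0.525%, 4.77-fold lower in matNeu than in GMP.

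The fall ran through nearly the whole set. Of the 82 members, 73 reached 1 TPM in at least 3 libraries and were tested with all 13061 such genes by limma on log2(TPM + 1). From GMP to preNeu, 69 of 73 fell and none rose, where 44.3% of all tested genes fell and 14.7% rose. From preNeu to matNeu, 65 fell and 2 rose, beside 39.8% and 22.9% of all tested genes. In matNeu against GMP, 71 fell and none rose, beside 54.1% and 22.8%. At an unadjusted limma p under 0.05, 0 members rose from GMP to preNeu and 0 in matNeu against GMP. The median member changed by -1.85, -1.55 and -3.56 on the log2 scale in these comparisons, and the median tested gene by -0.52, -0.32 and -0.92. Under median-of-ratios scaling, which brought the all-gene medians to -0.08, 0.00 and -0.11, 62, 52 and 69 members fell and 0, 4 and 1 rose, and 23.5% against 27.6%, 31.9% against 32.3% and 36.1% against 40.3% of all tested genes rose and fell.

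The members also moved alike at the first step and less so at the second. Their log2 changes had an SD of 0.42 from GMP to preNeu, with 1.42 over all tested genes, and of 0.97 from preNeu to matNeu, with 1.84 over all tested genes. Spearman's rho between their mean TPM in 2 cell types was 0.975 for GMP and preNeu, 0.870 for preNeu and matNeu and 0.820 for GMP and matNeu, across 73 genes that share the libraries and are not replicates. In 63 of the 73, every GMP library lay above every preNeu library and every preNeu library above every matNeu library, an order found in 25.2% of all tested genes. Among the other 10 were Rpl10, Rpl34, Rpl37, Rpl3l, Rpl41, Rps12-ps3, Rps13, Rps27 and Rps9.

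**Figure D2:**
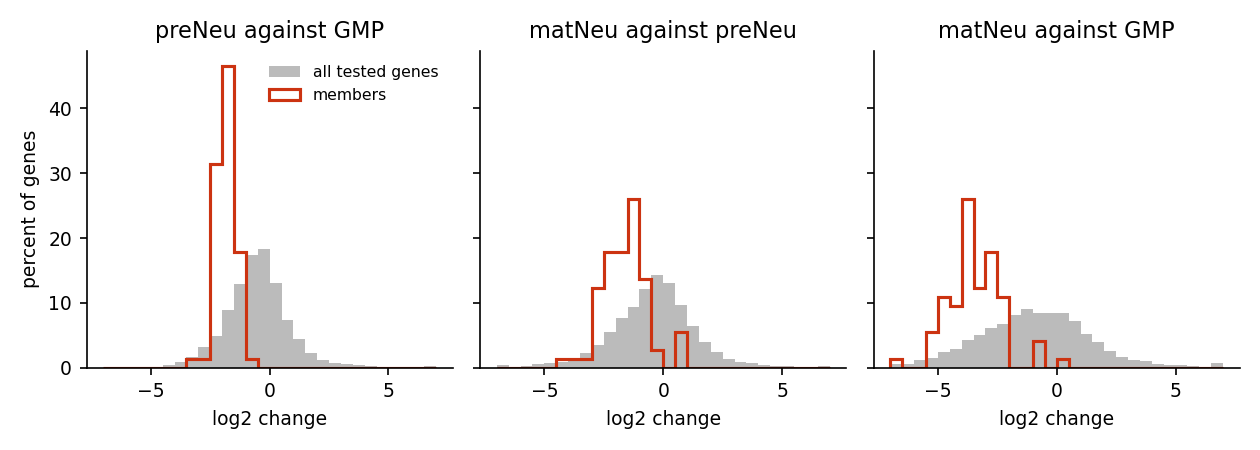
Distribution of the log2 change (x axis, values beyond 7 either way in the end bins) over the 73 tested members (outline) and all 13061 tested genes (grey), as percent of genes, for the 3 pairs of cell types. The members form a narrow peak with a median of -1.85 from GMP to preNeu and spread further from preNeu to matNeu.

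The members differed widely in level. Rplp0, the base of the stalk that recruits translation factors, was the highest in GMP at 4498, 3454 and 4732 TPM and fell to 1114, 1060 and 753 TPM in preNeu and to 365, 365 and 373 TPM in matNeu. Rpl4, a large subunit protein that lines the peptide exit tunnel, stood at 4356, 3938 and 4021 TPM in GMP, 1015, 1042 and 976 TPM in preNeu and 147, 145 and 162 TPM in matNeu. Rps2, a small subunit protein near the mRNA entry, fell from 1948, 2378 and 2865 TPM to 538, 543 and 380 TPM and to 127, 119 and 111 TPM. The groups of all these genes stood apart, and the fall in matNeu against GMP was larger for Rpl4 (log2 change -4.75, SE 0.09, limma adjusted p = 8.34e-11) than for Rplp0 (-3.51, SE 0.16, adjusted p = 9.23e-09), with Rps2 at -4.30 (SE 0.17, adjusted p = 3.22e-09). The 5 highest members held 37.4% of the members' TPM in GMP, 33.9% in preNeu and 42.1% in matNeu.

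The make-up of the top changed in matNeu. Rplp0, Rpl4 and Rps2 led in GMP and preNeu, and Rps9 and Rplp0 led in matNeu. Rps9, Rps27 and Rpl37, 3 members singled out after their values were seen, together held 3.31%, 3.91% and 3.41% of the members' TPM in the GMP libraries, 5.81%, 5.04% and 6.39% in the preNeu libraries and 23.1%, 25.1% and 20.3% in the matNeu libraries. Without them the members' share fell from 3.54% ± 0.347 in GMP to 0.296% ± 0.0655 in matNeu, 12.0-fold.

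Rps9, a small subunit protein that helps to keep decoding accurate, stood at 724, 911 and 871 TPM in GMP, 434, 359 and 329 TPM in preNeu and 705, 580 and 479 TPM in matNeu. Every matNeu library lay above every preNeu library, and the matNeu and GMP libraries did not overlap. The log2 change was -1.16 (SE 0.16, limma adjusted p = 1.35e-04) from GMP to preNeu, 0.64 (SE 0.16, adjusted p = 0.00505) from preNeu to matNeu and -0.52 (adjusted p = 0.0130) in matNeu against GMP. The last of these lost its call without GMP replicate 2 (adjusted p = 0.0508) or matNeu replicate 3 (0.0520) and turned to 0.49 (adjusted p = 0.0354) under median-of-ratios scaling.

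Rps27, a small zinc finger protein of the small subunit, stood at 290, 517 and 346 TPM in GMP, 151, 97.1 and 191 TPM in preNeu and 341, 233 and 157 TPM in matNeu. The matNeu libraries overlapped those of both other cell types. Its log2 change was -1.40 (SE 0.32, limma adjusted p = 0.00338) from GMP to preNeu, 0.71 (adjusted p = 0.0749) from preNeu to matNeu and -0.68 (adjusted p = 0.0727) in matNeu against GMP, which became 0.32 (adjusted p = 0.398) under median-of-ratios scaling. That scaling also ended the call from GMP to preNeu (-0.86, adjusted p = 0.0517) and gave 1.18 (adjusted p = 0.00984) from preNeu to matNeu. From preNeu to matNeu the change was called without preNeu replicate 3 (adjusted p = 0.0432) or matNeu replicate 3 (0.0214), and in matNeu against GMP without GMP replicate 1 (0.0475) or matNeu replicate 1 (0.0196).

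Rpl37, a zinc finger protein of the large subunit, stood at 61.9, 110 and 89.7 TPM in GMP, 20.2, 24.0 and 29.9 TPM in preNeu and 70.3, 37.3 and 30.3 TPM in matNeu. Each matNeu library lay above each preNeu library, the closest by under 1 TPM. The matNeu and GMP libraries overlapped, with matNeu replicate 1 at 70.3 TPM above GMP replicate 1 at 61.9 TPM. The log2 change was -1.76 (SE 0.31, limma adjusted p = 6.35e-04) from GMP to preNeu, 0.79 (SE 0.31, adjusted p = 0.0440) from preNeu to matNeu and -0.96 (adjusted p = 0.0148) in matNeu against GMP. The rise was not called without several single libraries: without matNeu replicate 1 it was 0.45 (adjusted p = 0.169), and it was also lost without GMP replicate 3, preNeu replicate 1, preNeu replicate 2 or matNeu replicate 2 (adjusted p = 0.0592, 0.137, 0.0929 and 0.0550). It was lost as well in 6 other alternatives, among them a pseudocount of 0.1, no filter, the replicate block and rescaling without the 10 highest genes (adjusted p = 0.0505, 0.0932, 0.0686 and 0.12). Against GMP the fall was lost without GMP replicate 2, matNeu replicate 2 or matNeu replicate 3 (0.0641, 0.0514 and 0.0615), and under median-of-ratios scaling it was 0.02 (adjusted p = 0.947).

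**Figure D3:**
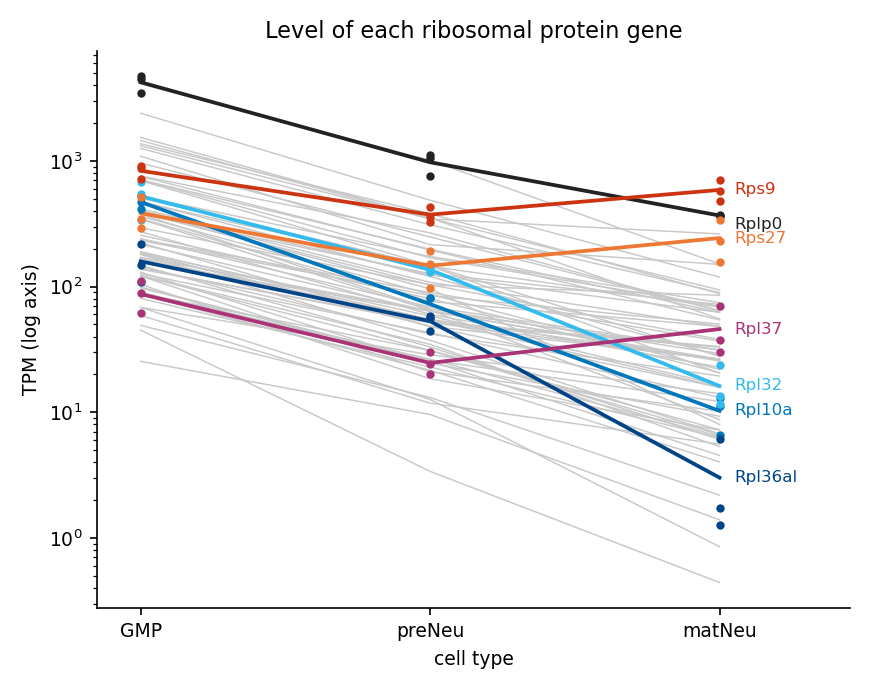
Mean TPM (log axis) of the 72 members that passed the filter, Rpl3l at about 1 TPM left out, in GMP, preNeu and matNeu. Coloured lines with the 3 libraries as points are Rplp0, Rps9, Rps27, Rpl37, Rpl32, Rpl10a and Rpl36al: the means of Rps9, Rps27 and Rpl37 are higher in matNeu than in preNeu, with overlapping libraries and no call for Rps27, and the other coloured genes fall at both steps.

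Departures were measured by subtracting from each library the median log2(TPM + 1) of the tested members, so that a member falling with the group changes by 0. The same value was subtracted from all genes of a library, so its error is shared and the departures are not independent between genes. The SEs also became more alike between genes. For Rps9 the SE in matNeu against GMP was 0.16 before and 0.39 after, and for Rpl10-ps3 0.91 and 0.42. The SE therefore reflects a gene's own spread less, and the adjusted p-values and calls of departures can overstate the certainty. From GMP to preNeu, 2 of 73 members lay below the group and none above, beside 4.44% and 58.6% of all tested genes (1 above at an unadjusted limma p under 0.05). From preNeu to matNeu, 13 lay below and 9 above, beside 10.6% and 54.8%, and in matNeu against GMP 19 lay below and 12 above, beside 7.96% and 72.7%. On this scale, in matNeu against GMP, Rps9 was 2.75 (SE 0.39, limma adjusted p = 1.39e-11), Rps27 2.58 (SE 0.38, adjusted p = 1.10e-10) and Rpl37 2.30 (SE 0.41, adjusted p = 4.80e-08) above the median member. These 3 stayed above it in every alternative run, by 2.23 to 2.94. Above the group at smaller sizes, from 0.84 to 1.24, were Rps13, Rpl37a, Rpl34, Rpl41, Rpl7l1, Rps12-ps3 and Rps25. Rpl3l was the most above, at 3.43, but it lay at 0 to 1.69 TPM in all libraries, where log2(TPM + 1) leaves no room to fall with the group.

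Of the 19 members below the group in matNeu against GMP, 14 had a large subunit symbol and 5 a small subunit symbol. Large subunit symbols also outnumbered small ones among the 12 above the group (7 and 5) and the 42 others (25 and 17). Rpl36al, a paralog of Rpl36a, fell from 108, 219 and 150 TPM in GMP to 58.5, 44.7 and 56.2 TPM in preNeu and 6.08, 1.72 and 1.27 TPM in matNeu, and was 2.18 below the median member on the log2 scale (departure -2.18, SE 0.42, limma adjusted p = 6.15e-07). Rpl10a, a large subunit protein of the L1 stalk, went from 418, 524 and 470 TPM to 80.8, 80.5 and 56.4 TPM and to 13.1, 11.2 and 6.55 TPM (departure -2.16, SE 0.39, adjusted p = 1.34e-07). It was also below the group at the first step, at -0.94 (adjusted p = 0.0304), as was Rpl12, a protein at the stalk base, at -1.69 (adjusted p = 0.00212). In these genes no library of a cell type overlapped another cell type.

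Rpl12 had 40.2, 51.4 and 43.6 TPM in GMP, 2.15, 5.31 and 2.70 TPM in preNeu and 0.36, 0.45 and 0.51 TPM in matNeu, 0.982% of its GMP mean. Rpl32, a large subunit protein, went from 341, 682 and 549 TPM to 143, 136 and 130 TPM and to 23.6, 11.6 and 13.4 TPM, with a departure of -1.55 from preNeu to matNeu (adjusted p = 2.04e-04, limma). Rpl39, which lines the exit tunnel, fell from 64.5, 82.2 and 57.9 TPM to 13.4, 11.0 and 13.5 TPM and to 1.24, 1.32 and 0 TPM. Over the 72 tested members other than Rpl3l, the median part of the GMP mean kept in matNeu was 8.36%. Rpl10-ps3, a copy of Rpl10, showed the deepest fall on the log2(TPM + 1) scale, though not as a ratio of mean TPM, from 387, 387 and 400 TPM to 124, 39.0 and 125 TPM and to 1.57, 0 and 22.4 TPM, but its split from Rpl10 depends on how reads shared by both were assigned, and Rpl10 itself held 186, 123 and 141 TPM in matNeu.

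**Figure D4:**
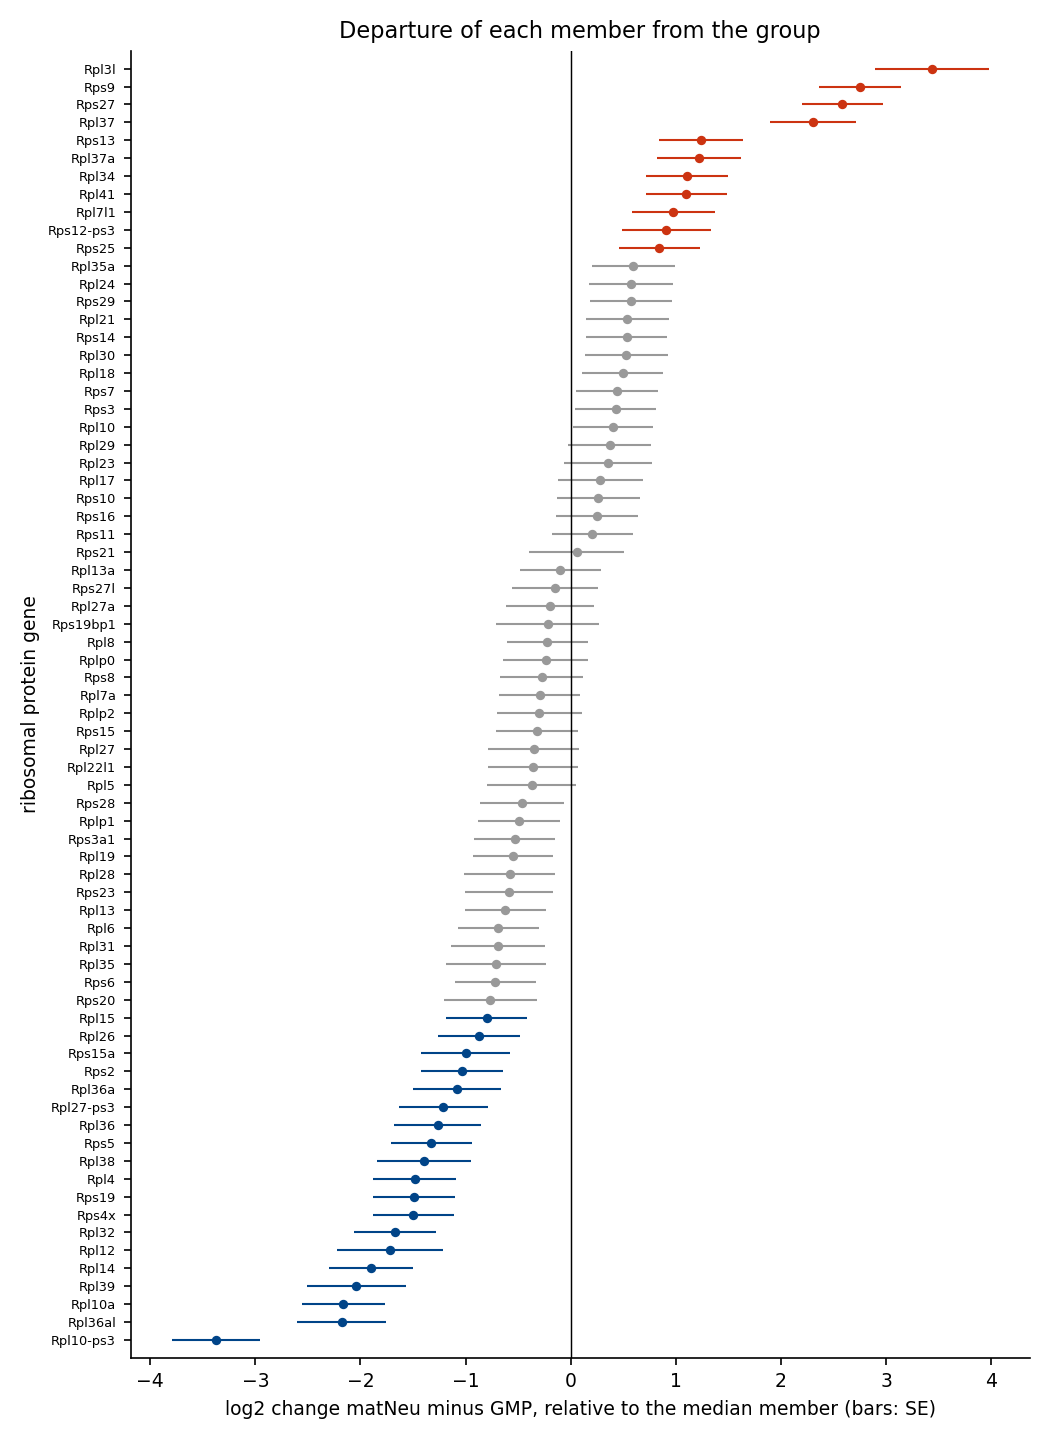
Log2 change in matNeu against GMP of 72 of the 73 tested members relative to the median member (x axis, error bars SE from limma), sorted. Red genes lay above and blue genes below the group at an adjusted p under 0.05; after Rpl3l, Rps9, Rps27 and Rpl37 stand apart at the top, and Rpl10-ps3, Rpl36al and Rpl10a lie lowest.

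Pyrimidine runs were looked for around the annotated starts of these genes, since the tract at the start of the mRNA is a feature the members share by reputation. The search read the strand that has the sequence of the mRNA. It took the longest uninterrupted run of C and T that touched the 15 bases before or the 15 bases after a RefSeq start site (GRCm38.p6). Where a gene had several starts, the longest run over them counted. A start was found for 55 of the 73 tested members, of which 26 (47.3%) had a run of at least 8 bases, as did 20.6% of 9278 other tested genes. Shown are Rps9, Rps27 and Rpl37, which lay furthest above the group after Rpl3l in matNeu against GMP, and 4 of the 19 members below it, chosen after their runs were seen to span run lengths, in 30 bases with the start in the middle and the run in capitals.
Rps9 (chr7:3704026-3704055, plus strand): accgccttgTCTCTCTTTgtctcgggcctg
Rps27 (chr3:90213634-90213663, minus strand): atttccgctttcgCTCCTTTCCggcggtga
Rpl37 (chr15:5116598-5116627, plus strand): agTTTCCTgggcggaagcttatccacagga
Rpl10a (chr17:28328456-28328485, plus strand): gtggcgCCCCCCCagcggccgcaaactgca
Rps19 (chr7:24884898-24884927, plus strand): gagggagcggggtgtggagggCTCTCCCac
Rpl4 (chr9:64173372-64173401, plus strand): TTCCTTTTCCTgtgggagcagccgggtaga
Rps4x (chrX:102189377-102189406, minus strand): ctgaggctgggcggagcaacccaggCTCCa
The run was 9 bases long in Rps9 and in Rps27 and covered the start in both, while it was 6 bases in Rpl37, 7 in Rpl10a and in Rps19, 14 in Rpl4, where it begins before the window, and 4 in Rps4x. The run ended ahead of the annotated start in Rpl37, Rpl10a and Rpl4 and began after it in Rps19 and Rps4x. Of the 12 members above the group in matNeu against GMP, 4 of the 10 with a start had a run of at least 8 bases, of the 19 below it 6 of 14, and of the 42 others 16 of 31. A match describes these letters only, and an annotated start can differ from the one used in these cells.

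The acidic stalk, which Rplp0 forms with Rplp1 and Rplp2, fell at all 3 of its genes. Rplp1 had 242, 534 and 358 TPM in GMP, 82.5, 54.6 and 62.1 TPM in preNeu and 52.6, 17.04 and 18.3 TPM in matNeu. Rplp2 had 125, 271 and 174 TPM in GMP, 54.5, 55.8 and 53.9 TPM in preNeu and 26.1, 8.42 and 13.2 TPM in matNeu. In matNeu against GMP the log2 changes of Rplp0, Rplp1 and Rplp2 were -3.51, -3.76 and -3.57, and none of the 3 departed from the group.

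All 9 Diamond-Blackfan genes examined fell in each comparison, as did most members. From GMP to preNeu, from preNeu to matNeu and in matNeu against GMP, 94.5%, 89.0% and 97.3% of tested members fell. Of all tested genes 44.3%, 39.8% and 54.1% did. Rps19, the gene most often mutated in that disease, stood at 377, 615 and 530 TPM in GMP, 135, 165 and 139 TPM in preNeu and 35.9, 17.3 and 8.27 TPM in matNeu, below the group in matNeu against GMP (departure -1.49, limma adjusted p = 2.21e-04). Rpl5, which binds the 5S ribosomal RNA, changed by -3.64 on the log2 scale in matNeu against GMP, Rps7 by -2.83, Rps10 by -3.01 and Rpl35a by -2.67, without departing from the group. Rpl11, Rps24 and Rps26, outside the rule by their transcript type, had 261, 314 and 131 mean TPM in GMP and 21.2, 17.4 and 7.39 mean TPM in matNeu. The list's median change in matNeu against GMP was -3.64, close to the -3.56 of the members, beside -0.92 for all tested genes.

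Paralogs were compared with their partners by level, which TPM gives per length; reads common to a pair could have been assigned to either gene. Rpl22l1 had 88.1 mean TPM in GMP and 6.65 in matNeu, and its partner Rpl22 125 and 4.46. Rpl7l1 had 157 and 31.3 mean TPM and lay above the group in matNeu (departure 0.98, limma adjusted p = 0.0184), where its partner Rpl7 had 982 and 109. Rps27l had 127 and 13.2 mean TPM, a log2 change of -3.42 (adjusted p = 3.32e-05), whereas its partner Rps27 kept 63.3% of its GMP mean. Rpl36a had 147 and 6.09 mean TPM, and Rpl36al 159 and 3.02. Of Rpl3 and its striated muscle paralog Rpl3l, Rpl3 went from 3153 mean TPM in GMP to 46.9 in matNeu (log2 change -6.09), and Rpl3l stayed at or below 1.69 TPM. Rpl26, Rps4x and Rpl10, partners of Rpl26l1, Rps4l and Rpl10l, fell by 4.14, 4.77 and 2.87 on the log2 scale. Rpl26l1 is absent from the expression table, so that pair could not be compared. Rps19bp1, which the symbol rule takes in although it encodes a binding partner of the S19 protein, had 25.5 mean TPM in GMP and 1.40 in matNeu, and Rps4l, of another transcript type, 16.8 and 1.88.

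The 9 members that did not pass the filter were Rpl10l, Rpl13a-ps1, Rpl36-ps4, Rpl36a-ps1, Rpl39l, Rpl7a-ps5, Rpl9-ps1, Rpl9-ps6 and Rps27rt. Of these, Rpl10l, Rpl13a-ps1, Rpl36a-ps1 and Rps27rt were listed at 0 in all 9 libraries, and the others were above 0 in 1 library each, at 0.211 to 2.71 TPM. Rpl10l and Rpl39l are paralogs known from the male germ line.

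All 12 genes left out by transcript type fell in each comparison, with a median log2 change of -1.88, -1.84 and -3.79. Of the 4 ribosomal protein genes with other names, Rpsa went from 1552 ± 124 TPM (SD, n = 3) in GMP to 25.2 ± 2.81 TPM in matNeu and Rack1 from 1009 ± 117 to 31.6 ± 3.44 TPM. Rps27a, a left-out gene that encodes a ribosomal protein fused to ubiquitin, went from 485 ± 137 to 114 ± 27.7 TPM. Fau, fused to a ubiquitin-like protein, had 66.6 ± 19.1 TPM in GMP, 43.7 ± 13.6 TPM in preNeu and 79.2 ± 32.3 TPM in matNeu, with a rise from preNeu to matNeu of 0.81 on the log2 scale (limma adjusted p = 0.0430) and a change of 0.22 against GMP (adjusted p = 0.541). With the 4 genes added, the share was 3.95% ± 0.365 in GMP and 0.399% ± 0.0891 in matNeu.

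In some libraries, the difference from the others of the cell type went with transcript length. Among the 64 members with a standard ribosomal protein name that passed the filter, the 32 with a principal transcript under 778 bases had a median ratio of 0.631 in GMP replicate 1 to the other GMP libraries and the 32 longer ones 0.782. In matNeu replicate 1 these ratios were 1.74 and 1.29. Among protein-coding genes outside the set with at least 10 mean TPM, short transcripts also lay below long ones in GMP replicate 1 (0.789 and 1.01). They lay above them in matNeu replicate 1 (1.47 and 0.949). Not every library showed this. Short and long members were nearly alike in GMP replicate 3 (1.02 and 1.03) and matNeu replicate 2 (0.762 and 0.750). In preNeu replicate 1 members had 1.08 and 1.15, while the other genes had 1.11 and 0.891. The members' share was lowest of its group in GMP replicate 1 and highest in matNeu replicate 1, and without either library the fall from GMP to matNeu on the log2 scale was -3.34 and -3.46. The B cell markers also summed to their lowest matNeu value, 603 TPM, in replicate 1, and the part of length and of B cells in the members' levels was not tested.

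Other genes of translation were counted on lists. Of 39 ribosome biogenesis genes tested, 38 fell and none rose from GMP to preNeu, and 38 fell and 1 rose in matNeu against GMP, beside 44.3% and 54.1% of all tested genes lower, with a median log2 change of -4.77 against -3.56 for the members. Npm1, a nucleolar chaperone, changed by -7.04 and Dkc1, the pseudouridine synthase of ribosomal RNA, by -7.13, while Polr1a, the largest subunit of RNA polymerase I, was 0.80 higher and Sbds, which readies the large subunit, 0.81 lower (limma adjusted p = 8.34e-11, 8.57e-08, 0.00246 and 3.87e-04). All 9 genes listed under elongation and termination fell in matNeu against GMP, with a median of -3.58. Not all of them are factors themselves: Eef2k encodes a kinase. Eef1a1, which delivers aminoacyl-tRNA, went from 11660 ± 563 TPM (SD, n = 3) to 686 ± 146 TPM. The largest falls were those of Eef1e1 (-5.02) and Eef1g (-4.60), and the smallest those of Etf1 (-2.20) and Eef2k (-1.09). From preNeu to matNeu Eef2k rose by 0.65 (limma adjusted p = 0.0447).

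Most initiation factors fell too. Of 37 tested, 34 fell and 1 rose in matNeu against GMP, with a median of -2.92. Eif2s1 (-5.49) and Eif3e (-5.43) fell most, and Eif1, which guards start codon choice, rose by 1.71 (limma adjusted p = 1.15e-07), with Eif4g3 at 0.04 (adjusted p = 0.89). Of 9 initiation repressors, 4 fell and 2 rose in matNeu against GMP, and 2 fell and 5 rose from preNeu to matNeu, beside 54.1% lower and 22.8% higher, and 39.8% lower and 22.9% higher, of all tested genes. Eif4ebp1, which blocks cap-dependent initiation, had 44.4 ± 12.4 TPM in GMP, 39.7 ± 5.52 TPM in preNeu and 202 ± 10.1 TPM in matNeu, and Eif2ak3, a kinase of the unfolded protein response, rose by 2.22 against GMP (adjusted p = 2.39e-05). Larp1, which binds the 5′ terminal oligopyrimidine tract, had 18.7 ± 2.53 TPM in GMP, 4.80 ± 1.25 TPM in preNeu and 0.496 ± 0.119 TPM in matNeu, and Eif2ak4, which senses amino acid lack, changed by -3.64. All 7 genes of ribosome rescue and quality control fell in matNeu against GMP, from Abce1 at -5.52 and Pelo at -2.51 to Hbs1l at -1.87 and Ascc3 at -1.04, with a median of -1.92.

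H3K4me2 peaks were about as frequent at the promoters of the members as at those of all tested protein-coding genes. A promoter was taken as 2 kb before to 500 bp after a coding start in GENCODE M21, and a peak counted with an overlap of 1 bp. Of the 72 tested members with such a start, 66 had an H3K4me2 peak in GMP (91.7%, 95% Wilson interval 83.0 to 96.1), 69 in preNeu and 69 in matNeu (95.8%, 88.5 to 98.6), beside 90.9%, 92.6% and 91.6% of 10276 tested protein-coding genes. The median fold enrichment of the highest peak was 3.56, 10.9 and 8.69 at members and 3.58, 10.5 and 8.54 at all tested protein-coding genes. Levels were not compared between lists, which were called separately. Rps9, Rps27 and Rpl37 had a peak in each cell type, at 12.4-, 10.9- and 12.2-fold in preNeu and 13.5-, 7.43- and 8.54-fold in matNeu, and so did Rpl10a, at 13.5- and 12.9-fold.

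Open chromatin was called at the promoters of 63 of the 72 members (87.5%, 77.9 to 93.3), beside 67.0% of all tested protein-coding genes. The 2 lists deposited for open chromatin, 1 per cell type, held the same 16307 peaks and were used as 1 list, so that no comparison between these cell types was possible. CHD4 peaks were rare at the members: 3 of 72 had one in wild-type GMPs (4.17%, 1.43 to 11.6), namely Rps15a, Rps27l and Rps29, beside 15.4% of all tested protein-coding genes. In Gfi1-/- GMPs the count was 1 of 72, Rps29 (1.39%, 0.246 to 7.46), beside 2.99%. The Gfi1-/- list held 7316 peaks in all and the wild-type list 35790, with 1 library each and no replicate check. The intervals cover counting error only. None of the 7 members with a start that did not pass the expression filter had a peak in any of these lists.

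**Figure D5:**
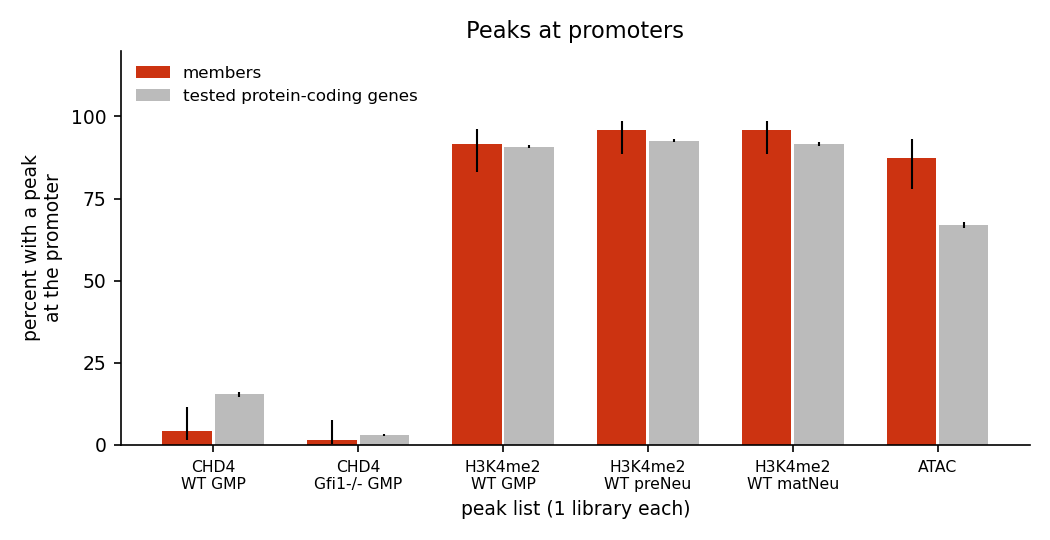
Percent of the 72 tested members and of 10276 tested protein-coding genes with a peak at the promoter, for each peak list (1 library each). Bars start at 0 and error bars are 95% Wilson intervals; the members stand below the other genes for CHD4 in wild-type GMPs and above them for ATAC-seq.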

How the data were processed

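RNA-seq was analysed from the table of TPM per gene, a length-corrected share of transcripts, that the authors deposited for 9 libraries, which all sum to the same total, so that the depth is unknown. The submitters' processing notes name FastQC 0.11.5, MultiQC 1.6, Trimmomatic 0.36, BWA 0.7.17, MACS2 2.1.0, kallisto 0.44.0 and mm10, while the study's methods describe Tophat with HTSeq counts; how the deposited TPM were made is not given in the sources used here. How reads shared with the 270 processed pseudogene rows of ribosomal protein symbols were assigned is likewise not given. For each peak, the lists deposited by the authors hold its fold over background and its q-value as −log10, called in single libraries.

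The members and all gene lists were chosen with earlier results of these data known. The 13061 genes that reached 1 TPM in 3 or more libraries entered limma 3.58.1 (R 4.3.3) on log2(TPM + 1), with cell type as the only factor in 1 fit over 9 libraries, a variance trend and Benjamini-Hochberg adjustment over all of them at 0.05. A fold change on this scale understates the change of low genes. Departures used the same fit after subtracting each library's median over the tested members. The code was tested on simulated data. Genes were named by rule: the 3 highest and 3 lowest members per cell type, the 3 largest departures each way per comparison, the stalk, Diamond-Blackfan, paralog and ubiquitin-fused genes, all members that failed the filter, and the 2 largest changes each way of the other lists. A few genes that this rule names are not reported here. Alternatives were other pseudocounts, filters, scalings, centrings, peak criteria and left-out libraries. Promoters came from GENCODE M21 and sequences from RefSeq (GRCm38.p6). The H3K4me3 and GFI1 peak lists were not used: 2179 and 3105 of their peaks end past the chromosome ends of GRCm38, which none of the other lists' peaks do.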

Additional observations from a re-analysis of the deposited data

How the results depend on the processing

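The fall of the members' share kept its direction under every alternative run. As log2 ratios of mean shares, preNeu over GMP was -1.95, and -1.66 without the 10 highest genes in the total; median-of-ratios scaling, chosen after seeing the data, gave -1.40, -0.85 for matNeu over preNeu (-1.31) and -2.25 for matNeu over GMP (-3.26). Leaving out 1 library gave -2.03 to -1.88, -1.51 to -1.21 and -3.46 to -3.16.

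The 69, 65 and 71 members that fell became 66 to 72, 58 to 67 and 69 to 72 without 1 library. Of all tested genes, 44.3%, 39.8% and 54.1% fell in the main run. For expression calls and departures, shares over all tested genes were taken only in the main run and, for calls, under the other scalings. In the remaining alternatives the member counts cannot be set against a shift of all genes. The 2 that rose from preNeu to matNeu became 1 with a pseudocount of 0.1, without a filter, with the compared groups alone, with the replicate block, without a variance trend or rescaled without the 10 highest genes, 4 under median-of-ratios scaling, and 1 to 3 without 1 library; in matNeu against GMP 1 rose under median-of-ratios scaling, against 0. That scaling turned the change of Rps9, Rps27 and Rpl37 in matNeu against GMP to 0.486, 0.318 and 0.0232 and of Rps4l from GMP to preNeu to 0.0337; Rpl3l in matNeu against GMP ranged from -0.22 (without GMP replicate 2) to 0.49 (without GMP replicate 3) and was -0.06 without matNeu replicate 3.

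Departures from GMP to preNeu, 0 above and 2 below, became 6 above without a filter, 1 above with the compared groups alone or without a variance trend, 2 above when centred on the mean of members or on canonical members, and 1 below with the replicate block or without a variance trend. From preNeu to matNeu, 9 above became 15 without a filter and 15 when centred on the mean, and in matNeu against GMP 12 above became 21 when centred on the mean. Without 1 library these counts were 0 to 1 above and 1 to 3 below, 6 to 11 above and 11 to 15 below, and 8 to 13 above and 14 to 21 below. Without a filter, members that had failed it entered if any library was above 0 TPM. Those lay at 0 to 2.71 TPM, where log2(TPM + 1) leaves no room to fall with the group. The cause of these differences was not tested.

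Counting a promoter only where the start lay inside a peak left 1 of 72 members with a CHD4 peak in wild-type GMPs and 0 in Gfi1-/- GMPs. Of all tested protein-coding genes, 8.25% and 1.59% had one by this criterion. At a −log10 q of at least 5, 28 of 66 members kept an H3K4me2 peak in GMP, as did 3991 of 9336 tested protein-coding genes. Same-numbered libraries deviated together little (r from -0.0394 to 0.123 over 9 pairs, over 0.1 in 1). With 3 libraries per cell type this cannot settle whether the numbers pair the samples, since paired samples can also share little deviation. With the replicate block 69, 62 and 71 members fell.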
